A study of Neurospora crassa with 22 samples.

Results

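The mRNAs of the mitochondrial respiratory chain and the ATP synthase were followed in RNA immunoprecipitation (RIP) libraries of GUL-1, an RNA-binding protein of the filamentous fungus Neurospora crassa. Members were the genes of the study's mass spectrometry protein list whose description holds one of 6 enzyme names (such as ubiquinone oxidoreductase, cytochrome c oxidase or ATP synthase) and whose identifier occurs in the count table. This gave 26 of 10592 features: 10 subunits of complex I, 2 of complex II, 5 of complex IV and 9 of the ATP synthase. The names of complex III matched no protein. Of the members 24 are nuclear genes and 2, NCU16016 (cytochrome c oxidase subunit 1, cox1) and NCU16028 (subunit 2, cox2), lie on the mitochondrial chromosome.

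The respiratory chain passes electrons from NADH (complex I) and succinate (complex II) through complex III and cytochrome c to oxygen at complex IV, and the proton gradient it builds drives the ATP synthase. Most subunits are translated in the cytosol from nuclear mRNAs and imported, whereas a few core subunits are translated inside the mitochondrion. The chain therefore holds transcripts of both compartments side by side.

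The question behind the experiment was which transcripts a GUL-1-GFP strain retains on GFP-Trap beads, relative to its own total RNA (input) and to a strain without a tag. The GUL-1-GFP strain has the labelled genotype Pccg1-gul-1-sgfp::his-3 with hph::deltagul-1, so that the tagged gene is driven by the ccg-1 promoter rather than its own. The study's strain list gives the same transgene and no deletion. The wild type carries no transgene. Hyphae grew in Vogel's sucrose medium (Vs), or in the same medium with 10 µM Nikkomycin Z (NZ), a chitin synthase inhibitor, for the last 1 h. Pull-downs had 3 libraries per strain and treatment, wild-type inputs 3, and GUL-1-GFP inputs 2. Both inputs of GUL-1-GFP in Vs carry a pull-down name in their titles, and their fraction labels, which give total RNA, were followed. Levels are relative to the library, and fewer cells of a kind cannot be told apart from less RNA per cell.

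Counts on protein-coding genes, the part of each library that measures mRNA, were few. The pull-downs of GUL-1-GFP had 900166 to 5200733 of them and those of the wild type 257726 to 1171431. There were 178300 to 430811 in 4 of the 6 wild-type inputs and 30660 to 48884 in the GUL-1-GFP inputs. The other wild-type inputs, Vs replicates 2 and 3, held 50469 and 59. The targeted gene was higher in every pull-down of the tagged strain than in any of the wild type. gul-1 stood at 101.6, 450.9 and 561.2 CPM (library-scaled counts after TMM normalization) in Vs and 767.6, 509.4 and 695.9 CPM with NZ in GUL-1-GFP, and at 3.98, 22.5 and 13.2 CPM in Vs and 4.03, 1.92 and 3.09 CPM with NZ in the wild type. Within Vs, gul-1 was thus lowest in replicate 1 of both strains, and wild-type replicates 2 and 3 lay above all other wild-type pull-downs. In both strains replicate 1 in Vs also stood apart in the 28 mitochondrial protein-coding genes, at 0.368% of protein-coding counts against 0.0503% and 0.0772% in GUL-1-GFP and at 1.78% against 0.206% and 0.0982% in the wild type. In total RNA gul-1 differed between the strains as well. It stood at 32.3 and 124.0 CPM in Vs and 105.4 and 123.1 CPM with NZ in GUL-1-GFP. The wild-type inputs had 0 to 7.76 CPM. Relative to its own inputs, gul-1 on the tagged strain's beads had a log2FC of 2.245 ± 0.808 in Vs (adjusted p 0.0513, edgeR). With NZ the log2FC was 2.525 ± 0.819 (adjusted p 0.0314), and only this passed. The strain difference on the beads is thus no measure of retention alone. Among the inputs, wild-type Vs replicate 3 held 59 protein-coding counts, and GUL-1-GFP NZ replicate 3 had 0 counts of cox1 against 195 in the other library. In the spore formation transcripts and in the atp-1 to cox1 ratio given further on, GUL-1-GFP Vs replicate 1 resembled most wild-type pull-downs and wild-type Vs replicate 2 resembled most GUL-1-GFP pull-downs, while gul-1 kept the strains apart. The labels were kept. Labels give hyphae. Of 4 transcripts typical of asexual spore formation (con-10, con-6, con-8 and eas), all 4 were counted in GUL-1-GFP pull-down Vs replicate 1, with a sum of 31.4 CPM. In the other 5 GUL-1-GFP pull-downs con-10 and con-6 were at 0, and the sum was 0.696 to 1.93 CPM. Counts of members called are also given with libraries left out, and estimates come from all libraries unless stated.

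The members drew a small part of the mRNA. Together they took 0.124% to 0.193% of protein-coding counts in the tagged strain's 6 pull-downs and 0.471% to 1.007% in the 6 wild-type pull-downs, without overlap. The mean share in GUL-1-GFP was 0.321 of that in the wild type in Vs and 0.179 of it in NZ. For the nuclear members alone these ratios were 0.343 and 0.466. The 10 most counted protein-coding genes of a library held 33.2% to 53.0% of those counts in pull-downs of GUL-1-GFP, and 6.19% to 9.96% in the wild-type pull-downs. As a share of all counts, most of which lay on features other than protein-coding genes, the ratio of the members turned to 1.71 in Vs and 1.297 in NZ. A share therefore depends on its denominator, and single transcripts are given in CPM below.

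**Figure D1:**
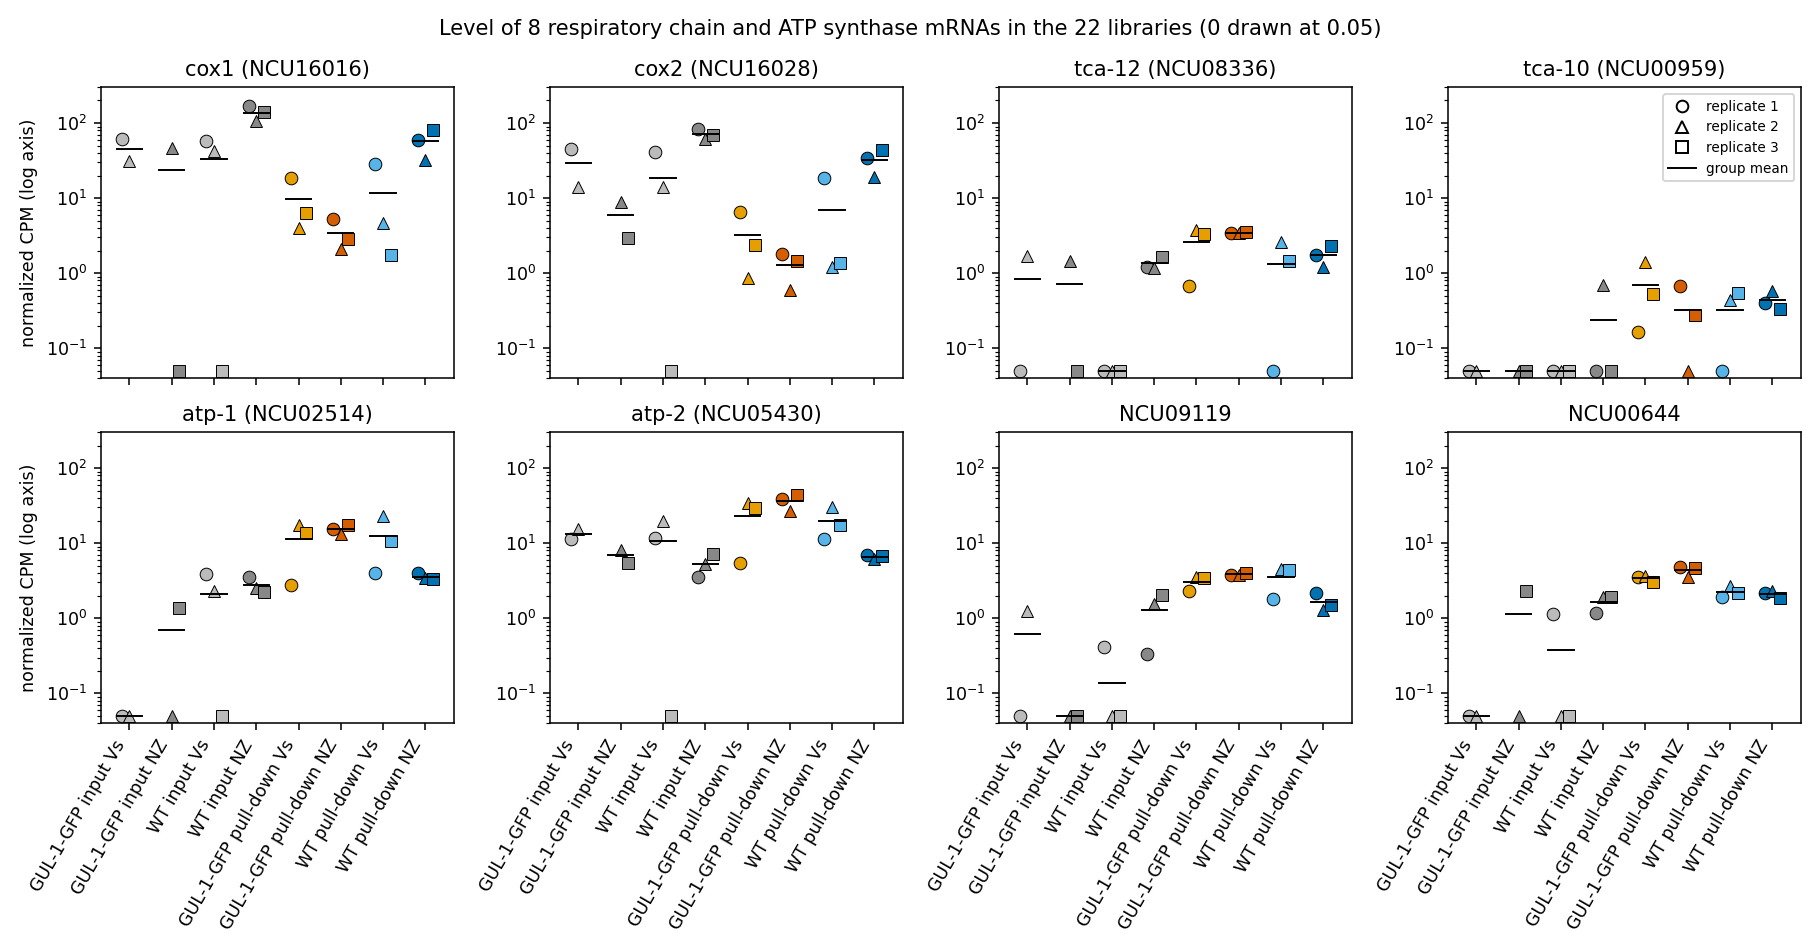
Level of 8 members in all 22 libraries, in normalized CPM on a log axis, with 1 point per library, the shape giving the replicate number and the bar the group mean; a value of 0 is drawn at 0.05. In NZ, atp-1 and atp-2 lie higher and cox1 and cox2 lower in the 3 libraries of GUL-1-GFP than in the 3 of the wild type, whereas in Vs the strains overlap.

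With Nikkomycin Z, 4 members differed between the pull-downs of the strains, and they split by genome. The 2 nuclear transcripts of the F1 head of the ATP synthase, atp-1 and atp-2, were higher in GUL-1-GFP, and the mitochondrial transcripts cox1 and cox2 were lower. Thus 2 of 26 members were higher, against 7.11% of all 7114 features tested, and 2 of 26 were lower, against 5.31%. Both shares are near the background. The median log2FC of the members was 0.23, and that of all features -0.13.

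atp-2 (NCU05430) encodes the catalytic beta subunit. Its level was 38.7, 26.9 and 43.6 CPM in GUL-1-GFP with NZ and 6.90, 6.22 and 6.67 CPM in those of the wild type. Every GUL-1-GFP library lay above every wild-type library, with a log2FC of 2.46 ± 0.63 (SE) and an adjusted p of 0.0104 in edgeR's quasi-likelihood test. atp-1 (NCU02514) encodes the alpha subunit, its partner in the F1 hexamer. It stood at 15.4, 13.3 and 17.5 CPM against 3.95, 3.43 and 3.35 CPM, with a log2FC of 2.103 ± 0.67 and an adjusted p of 0.0393. In each of the 12 pull-downs there were 1.32 to 2.83 atp-2 counts per atp-1 count, a narrower range than that of either transcript.

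cox1 (NCU16016), the catalytic core of complex IV, stood at 5.27, 2.12 and 2.85 CPM in GUL-1-GFP with NZ, and at 58.7, 32.0 and 80.1 CPM in the wild-type ones. Its log2FC was -4.05 ± 1.10 with an adjusted p of 0.0159. cox2 (NCU16028), which takes electrons from cytochrome c, stood at 1.795, 0.593 and 1.48 CPM against 33.9, 19.1 and 44.4 CPM. Its log2FC was -4.63 ± 0.97 with an adjusted p of 0.00207. The groups did not overlap for either transcript. Both other mitochondrial transcripts of the chain named here were lower as well, cytochrome b (NCU16013) with a log2FC of -4.45 ± 0.96 (adjusted p 0.00251) and subunit 3 of complex IV (NCU16003) with -4.79 ± 0.97 (adjusted p 0.00145). The direction was not particular to these transcripts. With NZ the 28 mitochondrial protein-coding genes together held 0.0302% to 0.0365% of protein-coding counts in GUL-1-GFP and 1.71% to 4.04% in the wild type.

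The remaining 22 members did not pass the adjusted threshold in NZ, and their differences ran from -1.90 to 1.22. On the higher side lay more of the ATP synthase core: the gamma subunit of the central stalk, NCU09119, at 3.74, 3.81 and 4.06 CPM against 2.19, 1.28 and 1.49 CPM (log2FC 1.22 ± 0.63, adjusted p 0.208), and des, the delta subunit beside it (1.21 ± 0.93, adjusted p 0.420). NCU00644, subunit g of the membrane part, stood at 4.79, 3.60 and 4.65 CPM against 2.19, 2.33 and 1.89 CPM (1.03 ± 0.62, adjusted p 0.296). NCU09119, des and NCU00644 were above in every library, as 25.7% of all features were, and the model gave no call. The peripheral stalk subunits did not share the direction: NCU00502 (subunit 4) had a log2FC of 0.42 ± 0.61, NCU01606 (subunit 5) -0.74 ± 0.63 and NCU00636 (subunit d) -0.74 ± 0.71. The last member of the enzyme, NCU05220 (subunit f of the membrane part), had -0.54 ± 0.58. NCU01606 and NCU05220 were below in every library, as 27.0% of all features were.

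Complex I was spread in the same way. No subunit passed, and positive and negative estimates occurred among both core and accessory subunits. Of the core and iron-sulphur subunits of the hydrophilic arm, nuo49, next to the quinone site, had 0.97 ± 0.62, nuo30.4, in the quinone-reducing module, 0.73 ± 0.74, nuo51, which binds NADH and FMN, 0.69 ± 0.68, nuo78, the largest iron-sulphur subunit, 0.10 ± 0.50, and nuo24, of the NADH-oxidising module, -0.23 ± 0.70. Of the accessory subunits, nuo29.9 had 0.36 ± 0.53, nuo40 -1.08 ± 0.76 (adjusted p 0.374), nuo14.8 -1.70 ± 0.80 (adjusted p 0.164) and nuo10.5 -1.90 ± 0.79 (adjusted p 0.112). In nuo40, nuo14.8 and nuo10.5 every GUL-1-GFP library lay below every wild-type library, as in 27.0% of all features. In nuo51 and nuo30.4 every GUL-1-GFP library lay above, as in 25.7% of all features. The last member, nuo21.3a, had 0.47 ± 0.73.

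Complex II was represented by 2 members, of which tca-10 was the less counted in every group of pull-downs. tca-12 (NCU08336), the flavoprotein that oxidises succinate, stood at 3.42, 3.43 and 3.52 CPM in GUL-1-GFP and at 1.73, 1.22 and 2.29 CPM in the wild type with NZ (log2FC 0.98 ± 0.85, adjusted p 0.480). tca-10 (NCU00959), its iron-sulphur partner, reached at most 41 counts in any pull-down. It stood at 0.681, 0 and 0.278 CPM against 0.395, 0.582 and 0.332 CPM (log2FC -0.38 ± 1.33), so that no difference was detectable at this depth. The nuclear subunits of complex IV, cox-4, cya-4 and NCU06741, had estimates of 0.07, 0.69 and -0.86, with standard errors of 0.62 to 0.68.

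**Figure D2:**
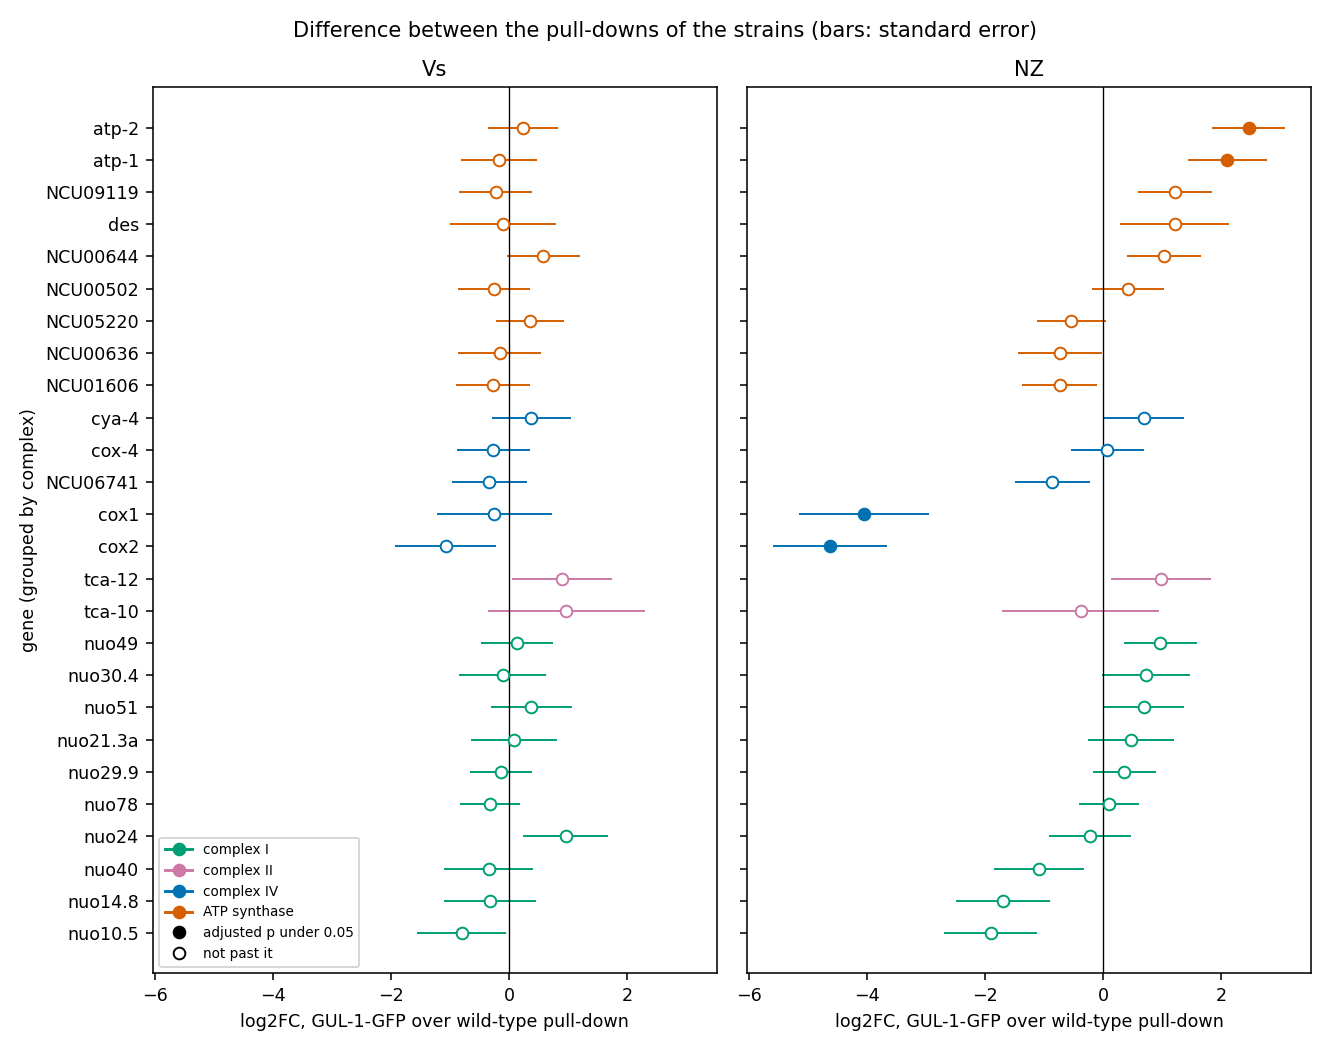
Difference between the GUL-1-GFP and wild-type pull-downs for the 26 members, as log2FC with its standard error, in Vs (left) and NZ (right), coloured by complex; filled points passed an adjusted p of 0.05. All 26 points are open in Vs, and in NZ the filled points are atp-1 and atp-2 at 2.103 and 2.46 and cox1 and cox2 at -4.05 and -4.63.

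By separation alone, 8 members were above in every library with NZ (25.7% of all features were) and 7 were below in every library (27.0% of all features). The count of calls differed between fits, which also differed in the features kept and in the normalization. In a fit of the 6 NZ pull-downs alone, 8 members were higher and 6 lower, with 24.5% and 22.3% of features called. With replicate 1 of both strains in Vs removed from the fit of all libraries, an alternative chosen after seeing the data, 4 were higher and 5 lower, with 16.4% and 13.8% of features called. All 4 of the main calls were kept in both fits. When a library was left out in turn, the count ran from 1 to 4: without GUL-1-GFP NZ pull-down replicate 1 or 3, or wild-type NZ pull-down replicate 3, only 1 call was left, without any other pull-down of these groups 2 were, and cox2 was called each time (log2FC -4.90 to -4.25, highest adjusted p 0.0216). Among protein-coding genes alone atp-1 lost its call (adjusted p 0.0626). The signs of atp-1, atp-2, cox1 and cox2 were the same under all 5 other scalings, whereas NCU00636, tca-10, nuo24, NCU01606 and NCU05220 turned positive with total counts as library sizes, and nuo78 and cox-4 turned negative among protein-coding genes alone.

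In the standard medium no member was called between the strains. Of 26 none passed in either direction in edgeR (0 also at an unadjusted p under 0.05, and 0 in DESeq2), against 2.59% of all features higher and 0.00% lower. The log2FC of the members lay between -1.08 and 0.97 with a median of -0.15, that of all features being -0.07. Only NCU00644 was above in every library, at 3.54, 3.66 and 3.003 CPM against 1.90, 2.71 and 2.18 CPM (9.42% of all features were above), and no member was below (5.54% of all features).

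The replicates in Vs were far apart, and not by strain. atp-1 stood at 2.75, 17.4 and 13.7 CPM in GUL-1-GFP and at 4.03, 23.1 and 10.8 CPM in the wild type. In both strains replicate 1 was low and the other replicates high. atp-2 did the same, with 5.51, 34.8 and 29.6 CPM against 11.4, 30.4 and 17.6 CPM. tca-12 followed them at 0.677, 3.71 and 3.33 CPM against 0, 2.59 and 1.45 CPM, and the gamma subunit NCU09119 at 2.28, 3.54 and 3.43 CPM against 1.79, 4.50 and 4.43 CPM. tca-10 stood at 0.167, 1.39 and 0.529 CPM against 0, 0.438 and 0.545 CPM.

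The mitochondrial transcripts ran the other way. cox1 stood at 18.5, 4.06 and 6.28 CPM in GUL-1-GFP and at 28.3, 4.66 and 1.75 CPM in the wild type, and cox2 at 6.45, 0.870 and 2.35 CPM against 18.4, 1.19 and 1.36 CPM. Replicate 1 was the high library in both strains. The differences were -0.25 ± 0.98 for cox1, -1.08 ± 0.85 for cox2, -0.17 ± 0.64 for atp-1 and 0.23 ± 0.59 for atp-2. The 95% intervals from these errors ran from -1.426 to 1.083 for atp-1, -0.930 to 1.391 for atp-2, -2.165 to 1.661 for cox1 and -2.739 to 0.588 for cox2. With 1 library left out, the signs were not kept. The estimates then ran from -0.626 to 0.589 for atp-1, -0.177 to 0.759 for atp-2, -1.155 to 1.605 for cox1 and -2.095 to 1.355 for cox2. Without replicate 1 of both strains in Vs, the count of members called there was still 0, with 4.27% of features higher and 0.414% lower. It was also 0 in a fit of the 6 Vs pull-downs alone, with 2.26% of features higher.

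**Figure D3:**
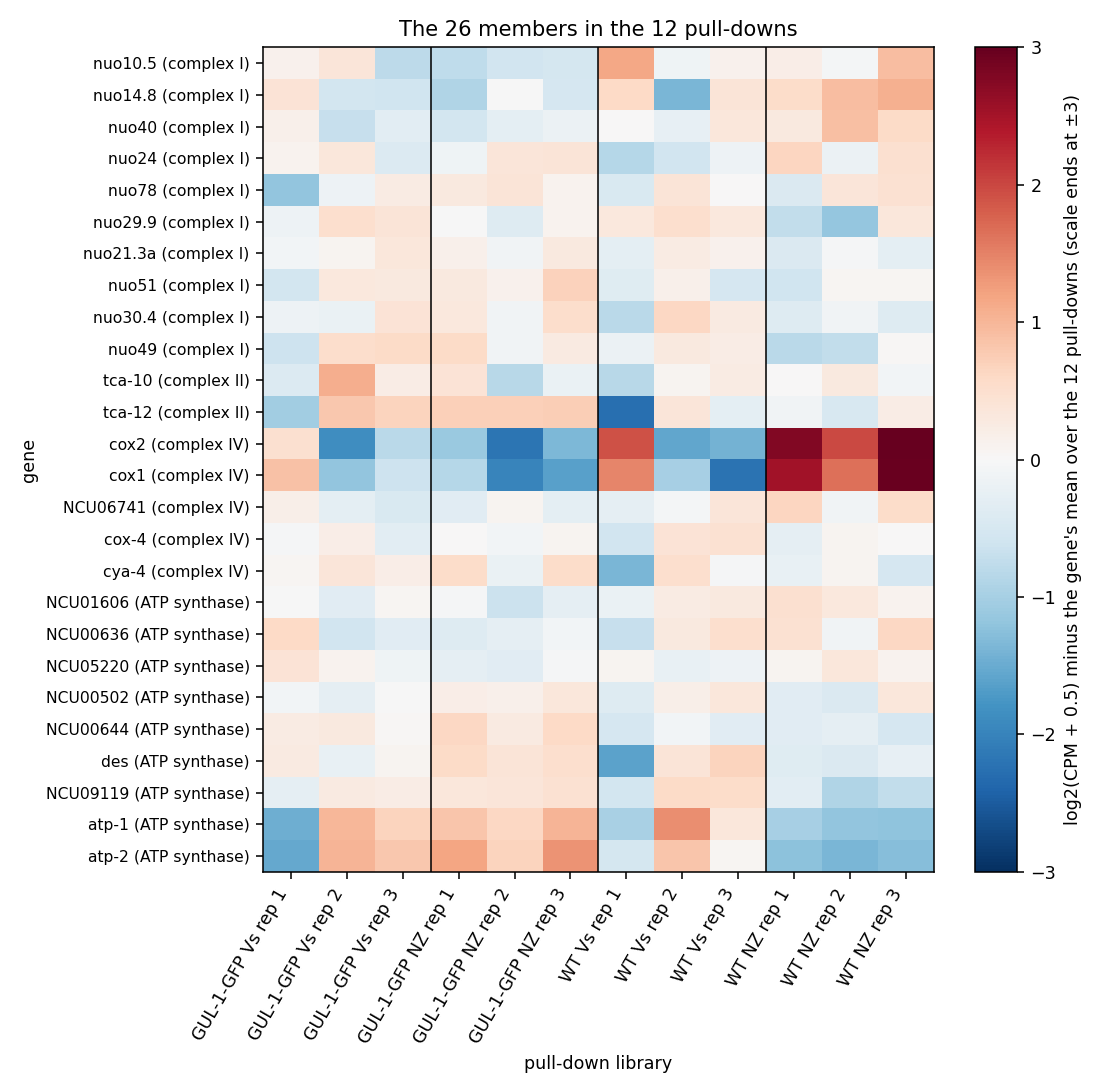
The 26 members (rows, by complex) in the 12 pull-downs (columns), as log2(CPM + 0.5) minus the mean of the gene over the 12 pull-downs, in red above and in blue below it, with the scale ending at 3 in each direction. cox1 and cox2 are high where atp-1 and atp-2 are low, in GUL-1-GFP Vs replicate 1, wild-type Vs replicate 1 and the 3 wild-type NZ libraries.

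Set against each other within a library, the nuclear and mitochondrial transcripts divided the 12 pull-downs into separate ranges. Counts are not corrected for transcript length here, and the ratio is read only across libraries. There were 2.18 to 6.26 atp-1 counts per cox1 count in 7 pull-downs: the 3 GUL-1-GFP libraries with NZ, GUL-1-GFP Vs replicates 2 and 3, and wild-type Vs replicates 2 and 3. In the remaining 5, GUL-1-GFP Vs replicate 1, wild-type Vs replicate 1 and the 3 wild-type libraries with NZ, the ratio was 0.0418 to 0.149. No pull-down lay between. With NZ the division coincided with the strains, and in Vs each strain had libraries in both ranges. Within each strain, gul-1 was lower in the libraries with a low ratio, at 101.6 CPM against 450.9 CPM or more in GUL-1-GFP and at 1.92 to 4.03 CPM against 13.2 and 22.5 CPM in the wild type.

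The summed level of the spore formation transcripts moved against this ratio in all pull-downs but 1. In 6 of the 7 libraries with a high ratio the sum was 0.696 to 2.31 CPM, and in the 5 with a low ratio it was 31.4 to 75.7 CPM. Most of the sum in those 5 came from con-8 and eas. Of the low-ratio libraries, wild-type Vs replicate 1 had con-6 at 0, and wild-type NZ replicate 2 had con-10 at 0. The exception was wild-type Vs replicate 3, with a high ratio of 6.17 and a sum of 44.5 CPM, most of it from eas at 39.2 CPM. With NZ the sum was 0.729 to 1.93 CPM in the GUL-1-GFP pull-downs, where con-10 and con-6 were at 0 in all 3, and 34.4 to 47.6 CPM in the wild type, where con-8 and eas were counted in all 3. In NZ the strain and the level of these transcripts cannot be told apart, and their part in the differences of atp-1, atp-2, cox1 and cox2 was not tested.

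**Figure D4:**
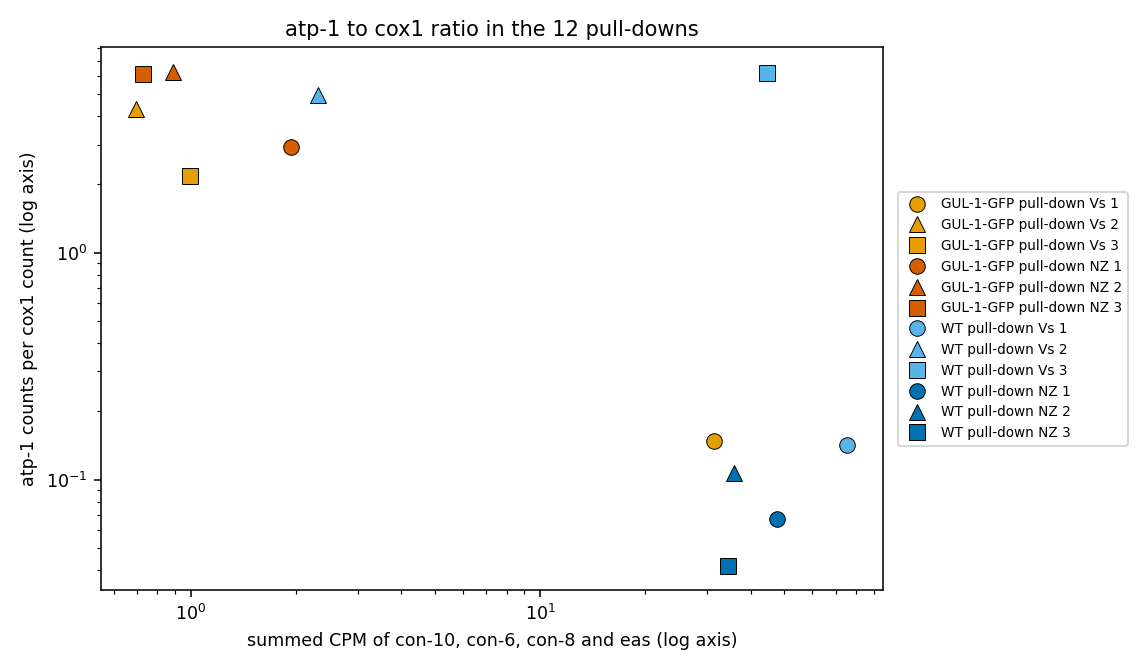
Ratio of atp-1 to cox1 counts against the summed CPM of con-10, con-6, con-8 and eas in the 12 pull-downs, both on log axes, with colour for strain and treatment and shape for the replicate. The 7 libraries at 2.18 or more and the 5 at 0.149 or less form separate ranges, and wild-type Vs replicate 3 is the only library with both a high ratio and a high sum.

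Nikkomycin Z was also compared with no treatment within each strain. In the GUL-1-GFP pull-down no member passed in edgeR, 0 did at an unadjusted p under 0.05, and 0 did in DESeq2, against 0.00% of all features in either direction. The members lay between -1.50 for cox1 (± 0.997) and 0.65 for atp-2 (± 0.59). In the wild-type pull-down no member passed either, with 0 in DESeq2, against 0.0281% of features higher and 0.0141% lower. An unadjusted p under 0.05 was reached by 4 of 26 members and by 822 of 7114 features. The 4 were cox1 (2.31 ± 1.02), cox2 (2.23 ± 0.87), atp-1 (-1.82 ± 0.66) and atp-2 (-1.58 ± 0.61), with adjusted p of 0.284 to 0.372. Without replicate 1 of both strains in Vs, 2 members were higher and 3 lower with NZ in the wild-type pull-down, with 5.79% and 6.86% of features called.

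Whether the treatment acted differently in the 2 strains was tested as an interaction. No member passed in edgeR, against 0.00% of features higher and 0.0281% lower, and 0 passed in DESeq2. An unadjusted p under 0.05 was reached by 4 of 26 members and by 711 of 7114 features. The estimates were 2.28 ± 0.92 for atp-1 (adjusted p 0.406), 2.23 ± 0.85 for atp-2 (0.369), -3.80 ± 1.43 for cox1 (0.367) and -3.56 ± 1.22 for cox2 (0.334). A difference between the strains was therefore called with NZ and not in Vs, while the change between the treatments was not called. Without replicate 1 of both strains in Vs, 1 member was higher and 2 were lower, with 1.73% and 1.20% of features called.

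In total RNA of the wild type, 2 members were higher with NZ, against 0.928% of all features higher and 0.0703% lower: cox-4, a nuclear-encoded subunit of complex IV, and NCU00636, subunit d of the ATP synthase. Both had 0 counts in all 3 Vs inputs. With NZ, cox-4 had 28, 33 and 30 counts and NCU00636 had 56, 64 and 36. The Vs inputs were shallower, with 178300, 50469 and 59 protein-coding counts against 255490 to 430811 with NZ, and the count of members called fell to 0 without Vs input replicate 2, any 1 NZ input, GUL-1-GFP NZ pull-down replicate 1 or 3, or wild-type NZ pull-down replicate 1 or 3. It was 1 without wild-type Vs pull-down replicate 3, where cox-4 lost its call. Without Vs input replicate 1 it was 5, but cox-4 and NCU00636 both lost their calls and the 5 were other members. cox1 stood at 57.9, 42.9 and 0 CPM in the Vs inputs and at 169.9, 105.6 and 139.2 CPM with NZ, the value of 0 belonging to the library of 59 counts (adjusted p not past the threshold).

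**Figure D5:**
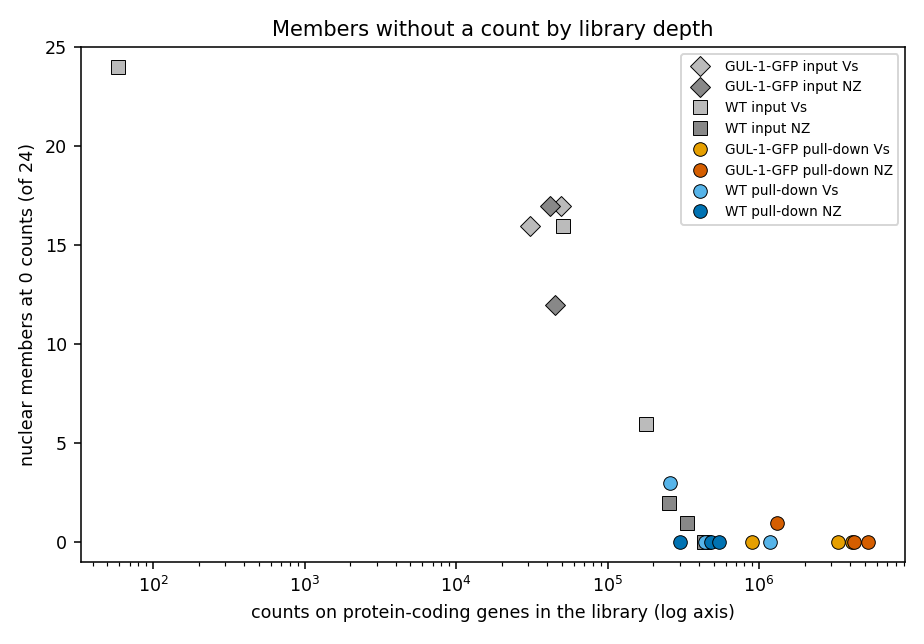
Number of the 24 nuclear members at 0 counts against the counts on protein-coding genes (log axis) in each of the 22 libraries, with colour and shape for the group. The 4 GUL-1-GFP inputs have 12 to 17 nuclear members at 0, and the 12 pull-downs have 3 at most.

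Retention over input was read with the thresholds the study gives for GUL-1-bound transcripts. The exact contrasts are a choice made here: in GUL-1-GFP, pull-down against input had to give an adjusted p under 0.05 and a log2FC beyond 2, with no such enrichment in the wild type. By this rule 7 members were bound in Vs and 8 with NZ, of which 4 were shared: atp-1, NCU00502, NCU05220 and NCU06741. In Vs the others were nuo49, cya-4 and NCU00644, and with NZ nuo51, nuo24, atp-2 and NCU09119. With NZ the wild-type condition removed nothing, since 0.00% of features were enriched there. None of the 7 in Vs was called higher in the GUL-1-GFP than in the wild-type pull-down, and with NZ only atp-1 and atp-2 were. Between the NZ pull-downs NCU06741 (-0.86), NCU05220 (-0.54) and nuo24 (-0.23) had negative estimates, and the rest of the 8 positive ones. cya-4 came close to the wild-type exclusion: its log2FC in Vs was 8.88 ± 2.45 in GUL-1-GFP (adjusted p 0.0148) and 8.496 ± 2.045 in the wild type (adjusted p 0.0593), with all Vs inputs of both strains at 0. Before the wild-type condition, 8 of 26 members were enriched in Vs, against 18.0% of all features, and 8 with NZ, against 18.5% (18.8% in either direction). The median log2FC was 1.89 over the members in both media, and 3.32 and 3.69 over all features.

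The inputs set what these calls can say. All 8 members enriched in Vs had 0 counts in both GUL-1-GFP inputs, and 6 of the 8 with NZ had 0 counts in both. Against 3 counts per input library, the mean pull-down level of atp-1 in Vs was at least 14.3-fold higher. Its replicates stood at 2.75, 17.4 and 13.7 CPM, so that the bound holds for the mean and not for each library. The means of the other enriched members in Vs were at least 1.02-fold (NCU06741) to at least 4.31-fold (NCU00644) higher. With NZ the bound was at least 1.14-fold (NCU06741) to at least 5.48-fold (NCU09119). Only atp-2 and atp-1 with NZ were called with any counts in the inputs, and neither call held throughout. atp-2 had 34 and 24 input counts, 8.22 and 5.51 CPM, and a log2FC of 2.41 ± 0.75 (adjusted p 0.0245), and the call was lost in 8 of 22 fits with 1 library left out, those without either input included (highest adjusted p 0.173). atp-1 had 0 and 6 input counts and a log2FC of 4.45 ± 0.998 (adjusted p 0.00296). Without input replicate 2 its log2FC was 3.51 (adjusted p 0.0593), and without input replicate 3, which leaves an input at 0, it was 11.8.

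Leaving out 1 GUL-1-GFP input cut the count of enriched members in Vs to 3 or 2, and that with NZ to 2 or 4. With NZ it was also 5 without GUL-1-GFP pull-down Vs replicate 1, NZ replicate 1 or 3, or wild-type NZ pull-down replicate 3. A block for each same-numbered pull-down and input gave 5 with NZ as well. In a fit of the libraries of the comparison alone, 0 members were enriched in Vs, where 0.00% of features were, and 6 with NZ, where 19.8% of features were. The only member lower on the beads than in total RNA of GUL-1-GFP was cox2 in Vs, against 0.365% of features lower. It had 141 and 67 input counts and a log2FC of -3.15 ± 0.96 (adjusted p 0.0229), and with total counts as library sizes the estimate turned to 0.73 ± 1.06. cox1 had a log2FC of -2.24 ± 1.09 in Vs and -2.78 ± 1.11 with NZ, without passing.

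The same contrast in the strain without a tag shows what the beads retained on their own. In Vs 2 of 26 members were enriched, cox-4 (9.21 ± 1.82, adjusted p 0.0263) and NCU00636 (9.08 ± 2.12, adjusted p 0.0485), against 0.450% of all features. Both had 0 counts in all 3 inputs, 1 of which held 59 protein-coding counts, and no fold is drawn from them. The count ran from 0 to 6 when a library was left out, and moved past 1.5 times in 21 of 22 cases. With a block for each same-numbered pull-down and input it was 0. With NZ, where all inputs had at least 255490 protein-coding counts, no member was enriched in edgeR (0 at an unadjusted p under 0.05, 0 in DESeq2, 0.00% of features). There atp-1 had a log2FC of 0.38 ± 0.66, atp-2 of 0.31 ± 0.60, cox1 of -1.28 ± 0.99 and cox2 of -1.14 ± 0.84.

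The difference in retention between the strains was tested as an interaction of strain and fraction. In Vs no member passed in edgeR, against 2.16% of features higher and 0.0422% lower (2.21% in either direction), and 1 passed in DESeq2. An unadjusted p under 0.05 was reached by 7 of 26 members and by 1272 of 7114 features. With NZ 4 members passed, all of the ATP synthase and all with a higher ratio of pull-down to input in GUL-1-GFP, against 9.17% of features higher and 9.28% in either direction: atp-1 (4.07 ± 1.18), the gamma subunit NCU09119 (9.36 ± 2.45), NCU00502 (8.96 ± 2.42) and NCU05220 (7.64 ± 2.44). NCU09119, NCU00502 and NCU05220 had 0 counts in both GUL-1-GFP inputs with NZ, so that the size of their estimates is no measure of the difference. In a fit with a block for each same-numbered pull-down and input, the count of members called was 1. Between the pull-downs themselves NCU05220 ran the other way, at 0.864, 0.805 and 1.09 CPM in GUL-1-GFP and 1.22, 1.57 and 1.26 CPM in the wild type. Its call was lost in 18 of 22 fits with 1 library left out, that of atp-1 in 8, and those of NCU09119 and NCU00502 in the 2 fits without a GUL-1-GFP input with NZ. The count was 0 without GUL-1-GFP NZ input replicate 2, 1 without NZ input replicate 3, and 2 without wild-type NZ input replicate 1, wild-type NZ pull-down replicate 2 or 3, wild-type or GUL-1-GFP Vs pull-down replicate 3, or GUL-1-GFP NZ pull-down replicate 1 or 3.

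Another 14 genes of the same pathway were not matched in the protein list. Of these, 1 was higher and 2 lower in the GUL-1-GFP pull-down with NZ, and 0 passed in Vs. The 2 lower were the mitochondrial transcripts NCU16013 and NCU16003 given above. The higher one was aac (NCU09477), the ADP/ATP carrier that exchanges the product of the ATP synthase for ADP across the inner membrane. It stood at 29.6, 25.4 and 37.5 CPM in GUL-1-GFP and at 7.26, 5.41 and 8.16 CPM in the wild type with NZ (log2FC 2.15 ± 0.72, adjusted p 0.0485). In Vs it stood at 3.64, 35.2 and 24.4 CPM against 7.79, 35.8 and 14.8 CPM, low in replicate 1 of both strains as atp-1 and atp-2 were. Of the others with the smallest adjusted p, cyt-26 (cytochrome c1) had a log2FC of 1.51 ± 0.69 (adjusted p 0.152) and NCU03559, a core protein of complex III, 1.51 ± 0.92 (0.294). qcr8 (complex III) had -1.81 ± 0.77 (0.123), and nuo9.5 and nuo20.1 (complex I) had -1.61 ± 0.89 (0.239) and -1.31 ± 0.72 (0.240). As among the members, positive and negative estimates occurred within 1 complex.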

How the data were processed

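RNA of pull-downs and inputs was sequenced by the authors after oligo(dT) selection and random priming. The paper names Tophat and HTSeq, whereas the submitters' processing notes list CASAVA 1.8.2, HISAT2 2.1.0 and StringTie 1.3.3b. The authors deposited whole numbers per gene without normalization, which were treated here as estimated counts made by assigning mapped reads to genes, since values of 1 and 2 fill 862 and 1921 cells of the table and values of 3 to 5 fill 4353, 4528 and 5340. They needed no rounding. Gene names, gene class and chromosome came from the NC12 annotation, in which 10590 of 10592 identifiers were found. The build behind the counts is not given in the sources used here, and no coordinates are printed.

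Features were filtered by filterByExpr (minimum count 10), which kept 7114 and all 26 members, normalized by TMM, and tested in one model of 8 groups over 22 libraries with edgeR 4.0.16 (R 4.3.3), quasi-likelihood, Benjamini-Hochberg over all features tested. A call is an adjusted p under 0.05, with a log2FC over 2 for GUL-1-GFP pull-down over input. DESeq2 1.42.0 was an alternative, with other scalings, filters, blocks and each library left out. The code was tested on simulated data. Replicates are separate libraries, and p-values measure the spread between them.

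The protein list gave 1995 readable rows of a shortened table. Members, gene lists and tests were chosen with earlier results of these data known. Values in every library are given for the mitochondrial and complex II members, the 4 nuclear members with the highest mean CPM in GUL-1-GFP pull-downs, and every member called between pull-downs. Named outside the members are gul-1, the mitochondrial genes of the other list and its 6 with the smallest adjusted p. That list was not extended by annotated products, which the annotation table used here does not hold. Limits against 3 counts per library cover counting error only. Against TMM, the median log2FC of all features between pull-downs shifted by 0.96 in Vs and 0.85 in NZ with total counts, by -0.30 in NZ among protein-coding genes alone, by 0.14 in NZ without the 10 most abundant features and by -0.17 in Vs with DESeq2.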

Additional observations from a re-analysis of the deposited data

Results flagged for a closer look

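In 4 members the ratio of pull-down to input passed a test of the difference between the strains with Nikkomycin Z (edgeR, adjusted over all features): atp-1 (4.07 ± 1.18, adjusted p 0.0290), NCU09119 (9.36 ± 2.45, adjusted p 0.0164), NCU00502 (8.96 ± 2.42, adjusted p 0.0203) and NCU05220 (7.64 ± 2.44, adjusted p 0.0479), all log2 values and all higher in GUL-1-GFP. With 1 library left out, the call of NCU05220 was lost in 18 of 22 fits (highest adjusted p 0.184), that of atp-1 in 8 (highest adjusted p 0.166, log2 values 3.13 to 11.4), and those of NCU09119 and NCU00502 in 2 each (highest adjusted p 0.104 and 0.114). For NCU05220 every pull-down of GUL-1-GFP with NZ lay below every one of the wild type, so that its direction rests on the 0 counts in the inputs. In the GUL-1-GFP inputs with NZ, NCU09119, NCU00502 and NCU05220 had 0 counts in both libraries and atp-1 had 0 and 6. In the wild-type inputs with NZ, the same transcripts had 6, 35 and 28 counts (NCU09119), 24, 40 and 28 (NCU00502), 22, 34 and 17 (NCU05220) and 63, 57 and 31 (atp-1). The part of the input depth in these differences was not tested.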

How the results depend on the processing

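Counts below are of 26 members called. A count without a share of all features beside it, here or in the Results, is not read as a result about the members. Between pull-downs with NZ (4), the 6 libraries alone gave 14 and removal of Vs replicate 1 of both strains and fractions gave 9, the other settings with all libraries giving 3 or 4. In Vs (0) every setting gave 0. For GUL-1-GFP pull-down over input in Vs (8), total counts as library sizes gave 22 and the libraries of the comparison alone 0; with NZ (8), total counts gave 16. For the wild type in Vs (2), DESeq2 gave 4, total counts 7, no filter on low counts 6, removal of the 10 most abundant features 5, protein-coding genes alone 1, the libraries of the comparison alone 0 and removal of Vs replicate 1 gave 10. After that removal 7.91% of all features were higher. The strain by fraction interaction in Vs (0) had 1 call in DESeq2, 2 with total counts and 1 without the filter. With NZ (4) it had 8 in DESeq2, 7 with total counts and 7 without Vs replicate 1, where 16.9% of features were higher and 0.442% lower. Without Vs replicate 1, NZ against none had 5 calls in the wild-type pull-down (0) and 9 in its input (2), where total counts gave 0. In the input 14.9% of features were higher and 2.96% lower without that replicate. The treatment by strain interaction (0) had 2 without the filter and 3 without Vs replicate 1. The ratio of the members' shares was 1.705 in Vs and 1.297 in NZ over all counts, and 0.4662 in NZ for nuclear members alone. cox2 over input in Vs turned to 0.73 with total counts (adjusted p 0.502). The causes were not tested. With 1 library left out, the counts ran from 0 to 0 and from 1 to 4 between pull-downs in Vs and NZ, from 2 to 9 over input for GUL-1-GFP in each medium, from 0 to 6 and 0 to 0 for the wild type, from 0 to 3 and 0 to 5 for the strain by fraction interaction, from 0 to 0, 0 to 1 and 0 to 5 for NZ in the GUL-1-GFP pull-down, wild-type pull-down and wild-type input, and from 0 to 1 for treatment by strain. The share ratios ran from 0.2947 to 0.3395 in Vs and from 0.1574 to 0.2052 in NZ. For single members there were 2408 values under other settings, libraries left out included. Of these, 2221 kept their side of the threshold, 171 lost a call, 15 gained one and 1 with a call reversed. A change of sign without a call in either fit was counted among the 2221, so that direction was not kept in all of them.

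Replicate numbers were not treated as pairing in the main fit, since no label states that a number marks a shared culture. The deviations from the group means of same-numbered pull-downs and inputs correlated over 0.1 in 8 of 10 pairs (mean 0.215, lowest 0.00111). The mean over pairs of unlike number was -0.109. Centring on the group means pushes these pairs below 0, so that their mean is no separate contrast. Pairing is not excluded. With the replicate block the counts were 4 between pull-downs with NZ, 7 and 8 for GUL-1-GFP over input, 1 for the wild type over input in Vs, 3 for the strain by fraction interaction with NZ, 1 for NZ in the wild-type pull-down and 1 for treatment by strain. With a replicate block by culture they were 5 for GUL-1-GFP over input with NZ, 0 for the wild type over input in Vs and 1 for the strain by fraction interaction with NZ. Depth limits the comparisons with inputs, in which 12 to 17 of 24 nuclear members were at 0 in GUL-1-GFP.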
